A study of Homo sapiens with 2 samples.

Results

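The epidermal differentiation complex is a cluster of genes on the long arm of human chromosome 1, in band 1q21, that encode proteins of terminally differentiating squamous epithelium. Its chromatin occupancy by MLL3 and GRHL2 was described from lists of ChIP-seq regions in KYSE510, a cell line derived from a squamous carcinoma of the esophagus. A region belonged to the complex when its summit lay between 151950001 and 153650000 on chromosome 1 (build hg19), a window of 1.7 Mb. The window held 24 of 12150 MLL3 regions and 92 of 152864 GRHL2 regions. It also contains the 8 genes followed here, FLG, IVL, SPRR1A, SPRR3, SPRR1B, SPRR2A, S100A9 and S100A8, whose positions were known to 1 kb.

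The 2 groups were unmodified KYSE510 cells precipitated with an antibody against MLL3 and unmodified KYSE510 cells precipitated with an antibody against GRHL2. Each group was 1 library of 1 cell line, and the deposited list of each had been called against input. Cells with siRNA against MLL3 or GRHL2, which the design text also names, were not analysed here. With no replicate there is no spread between cultures, no difference below was tested, and all intervals are exact 95% intervals that cover the counting of regions only. They take each region as independent, so they may be too narrow where regions lie close together. RNA was not measured, so the squamous identity of the line could not be set against its markers.

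The genes of the complex fall into families that sit side by side. The S100 fused-type genes, among them FLG (profilaggrin), encode large proteins that bundle keratin or stiffen the cornified cell. The LCE and SPRR genes, IVL (involucrin) and LORICRIN encode precursors that transglutaminases cross-link into the cornified envelope, and SPRR3 and IVL are also made in the non-keratinized lining of the esophagus. S100A8 and S100A9 are calcium-binding proteins that pair as calprotectin, an antimicrobial and inflammatory protein of stressed squamous cells and neutrophils. GRHL2 is a Grainyhead-like transcription factor that binds DNA in epithelial cells, and MLL3, or KMT2C, places a methyl mark on histone H3 at enhancers. In RefSeq gene order the complex runs over 63 protein-coding genes from S100A10 to S100A1, with 7 S100 fused-type, 19 LCE, 11 SPRR and 16 S100 genes.

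The promoters that carry the findings at single genes are shown first. A GRHL2 region covered the position given for the start of S100A9, and another that of IVL. These positions are known to 1 kb, so the exact starts may lie outside the regions. The only MLL3 region within 10 kb of the start of a followed gene lay beside SPRR1B. The 250 bases before each start are given 5′ to 3′ from RefSeq (GRCh38.p14, chromosome 1, all on the plus strand), with capitals for matches to the Grainyhead-like word AACCNGTT or the AP-1 word TGANTCA.
S100A9: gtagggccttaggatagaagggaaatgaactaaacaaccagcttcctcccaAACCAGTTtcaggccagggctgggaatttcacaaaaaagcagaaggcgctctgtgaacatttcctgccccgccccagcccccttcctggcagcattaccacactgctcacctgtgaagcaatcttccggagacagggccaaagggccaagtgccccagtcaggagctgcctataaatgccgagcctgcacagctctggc
IVL: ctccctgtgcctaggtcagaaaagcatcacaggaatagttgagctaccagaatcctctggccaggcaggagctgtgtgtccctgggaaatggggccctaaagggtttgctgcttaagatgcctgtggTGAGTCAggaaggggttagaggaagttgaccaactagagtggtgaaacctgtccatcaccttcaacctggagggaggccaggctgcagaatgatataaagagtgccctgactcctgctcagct
SPRR1B: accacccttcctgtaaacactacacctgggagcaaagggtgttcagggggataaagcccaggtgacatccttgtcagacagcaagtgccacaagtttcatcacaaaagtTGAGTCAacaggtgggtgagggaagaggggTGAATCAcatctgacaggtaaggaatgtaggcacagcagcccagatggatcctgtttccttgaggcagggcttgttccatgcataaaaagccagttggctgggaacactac

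S100A9 was the only followed gene whose promoter held the Grainyhead-like word. The word began 199 bases before the start. Both strands were searched, and the looser word AACNNGTT, which includes every AACCNGTT, added no match among the 8 genes. Over the complex, 3 of 59 genes with a promoter sequence held AACCNGTT, namely S100A9, LCE1A and RPTN (5.08%), and 505 of all 27305 genes with promoters of the same length did (1.85%). The sequence and the region lists come from different builds and the gene positions are known to 1 kb, so whether the word lies inside the GRHL2 region cannot be told.

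Matches to the AP-1 word were more common than the Grainyhead-like word, both in the complex and over all promoters. The AP-1 word has fewer fixed letters, so the counts of the words cannot be compared directly. TGANTCA, which reads the same on both strands, was found before 6 of the 8 genes, all but S100A8 and S100A9, before 20 of the 59 genes of the complex with a sequence (33.9%) and before 8.06% of all 27305 genes. It lay 123 bases before the start of IVL, and SPRR1B had matches at 141 and 111 bases. The N stands for any base. The only match of FLG and that of SPRR1B at 111 bases read TGAATCA, and the other matches of the followed genes read TGAGTCA. A word with a narrower middle base was not counted, either here or over all promoters, so all these shares are those of the loose word. By family, 6 of 9 SPRR genes, 6 of 7 S100 fused-type genes, 4 of 16 S100 genes, 0 of 18 LCE genes and 0 of 2 PGLYRP genes with a sequence held the word, as did 4 of 7 others, IVL, LORICRIN, LELP1 and PRR9. No AP-1 protein was mapped here, and a match is only a run of letters.

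MLL3 regions were denser in the complex than beside it. The complex had 14.1 MLL3 regions per Mb (95% interval 9.05 to 21.0), against 6 per Mb in the 1 Mb flank on the left (6 regions, 95% interval 2.20 to 13.1) and 4 per Mb in that on the right (4 regions, 95% interval 1.09 to 10.2). The density was 2.82 times that of both flanks together (95% interval 1.30 to 6.62). This interval counts every region as independent, although 3 of the 24 lay inside the same GRHL2 region, so it may be too narrow. Between the first and the last listed region of each chromosome the whole list averaged 4.07 per Mb. Other windows of 1.7 Mb were laid end to end over the chromosomes, and the 1704 that held a region of either list were kept. The last window of a chromosome could run past its last region. Of the 1704, 98.4% held fewer MLL3 regions than the 24 of the complex, 23 held more, and the median was 5 (quartiles 2 and 9).

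The density of GRHL2 regions in the complex lay between those of its flanks. The complex had 54.1 GRHL2 regions per Mb (95% interval 43.6 to 66.4), against 77 per Mb in the left flank and 47 per Mb in the right. The ratio to both flanks was 0.873 (95% interval 0.659 to 1.15), and 64.6% of the other windows held fewer than 92, with a median of 63.5. The GRHL2 list was deposited down to a −log10 p of 1.30, without regard to q, and holds many weak regions. Those with −log10 q ≥ 2, a limit that all MLL3 regions passed, are called high-confidence here and are given beside the rest. Of the 92 GRHL2 regions 32 were high-confidence, and in the whole GRHL2 list 19.7% were. These 32 made up 18.8 per Mb, against 24 per Mb in the left flank and 10 per Mb in the right, 1.11 times both flanks together (95% interval 0.662 to 1.85), and 87.5% of the other windows held fewer.

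**Figure D1:**
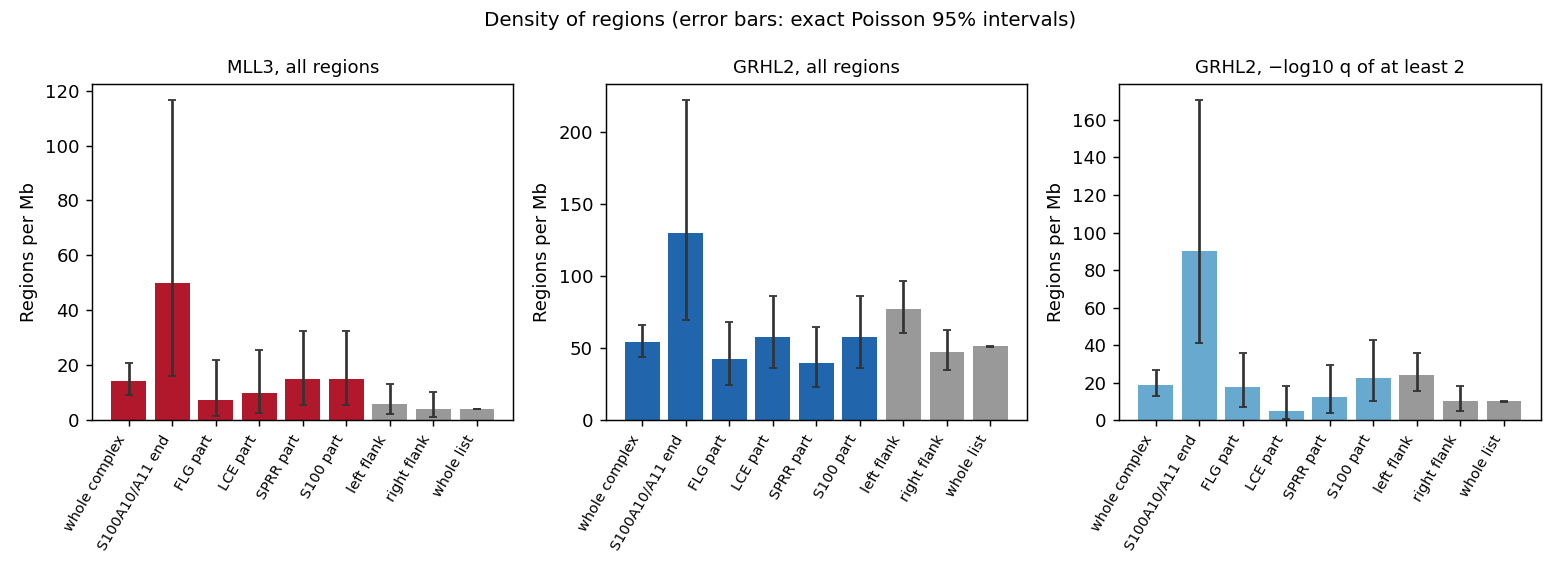
Regions per Mb for MLL3, all GRHL2 regions and high-confidence GRHL2 regions (−log10 q ≥ 2), in the complex and its parts (coloured), in the flanks and in the whole list (grey); error bars are exact Poisson 95% intervals. The short end with S100A10 and S100A11 had the highest bar in all 3 panels, with 50 MLL3 regions per Mb from only 5 regions in 100 kb, while the other parts are 400 kb long.

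The enrichment of typical regions was close to that of the lists they came from. Fold enrichment, the authors' ratio of ChIP signal to local background at a summit, had a median of 6.44 in the 24 MLL3 regions (quartiles 5.11 and 9.16), against 6.49 in the flanks and 6.49 in the whole list. For GRHL2 the median was 2.78 (quartiles 2.41 and 4.10), against 2.75 in the flanks and 2.77 in the whole list. The highest folds were 18.2 for MLL3 and 54.1 for GRHL2 in the complex, against 13.5 and 92.5 in the flanks.

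Most MLL3 regions of the complex were GRHL2 regions as well. Of the 24, 18 overlapped a GRHL2 region by at least 1 bp (75%, 95% interval 53.3 to 90.2%), and 85.0% of the whole MLL3 list did, which lies inside that interval. In the flanks the count was 8 of 10. A high-confidence GRHL2 region was met by 13 of the 24 (54.2%, 95% interval 32.8 to 74.4%), and over the whole MLL3 list 68.7% met one. The share in the complex was thus near the background and is no result about these genes.

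From the GRHL2 side the shared fraction in the complex was above that of the whole list. Of its 92 GRHL2 regions 15 carried an MLL3 region (16.3%, 95% interval 9.42 to 25.5%), against 8 of 124 in the flanks (6.45%, 95% interval 2.83 to 12.3%) and 6.15% of the whole GRHL2 list, which lies below the interval of the complex. The intervals of the complex and the flanks overlapped. Among high-confidence GRHL2 regions it was 10 of 32 (31.2%, 95% interval 16.1 to 50.01%), against 7 of 34 in the flanks (20.6%, 95% interval 8.70 to 37.9%) and 24.5% in the whole list, which lies inside the interval of the complex. The shared fraction is not independent of the MLL3 density, which was 14.1 per Mb against 4.07 in the whole list. For GRHL2 the densities were 54.1 and 51.1 per Mb. It is thus no separate result.

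Sharing went with the stronger MLL3 regions. The 18 shared MLL3 regions had a median fold of 8.62, between 3.22 and 18.2. The 6 without a GRHL2 region had a median of 5.18, between 3.69 and 6.09. The ranges overlapped, but every MLL3 region of the complex above a fold of 6.09 was shared. Over the whole list the medians were 6.65 for shared and 5.76 for unshared MLL3 regions. The 3 unshared regions of the SPRR part, 2 of the LCE part and 1 near S100A10 and S100A11 made up the 6. The median distance between the summits of overlapping regions was 127 bp, against 104 bp in the whole list.

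**Figure D2:**
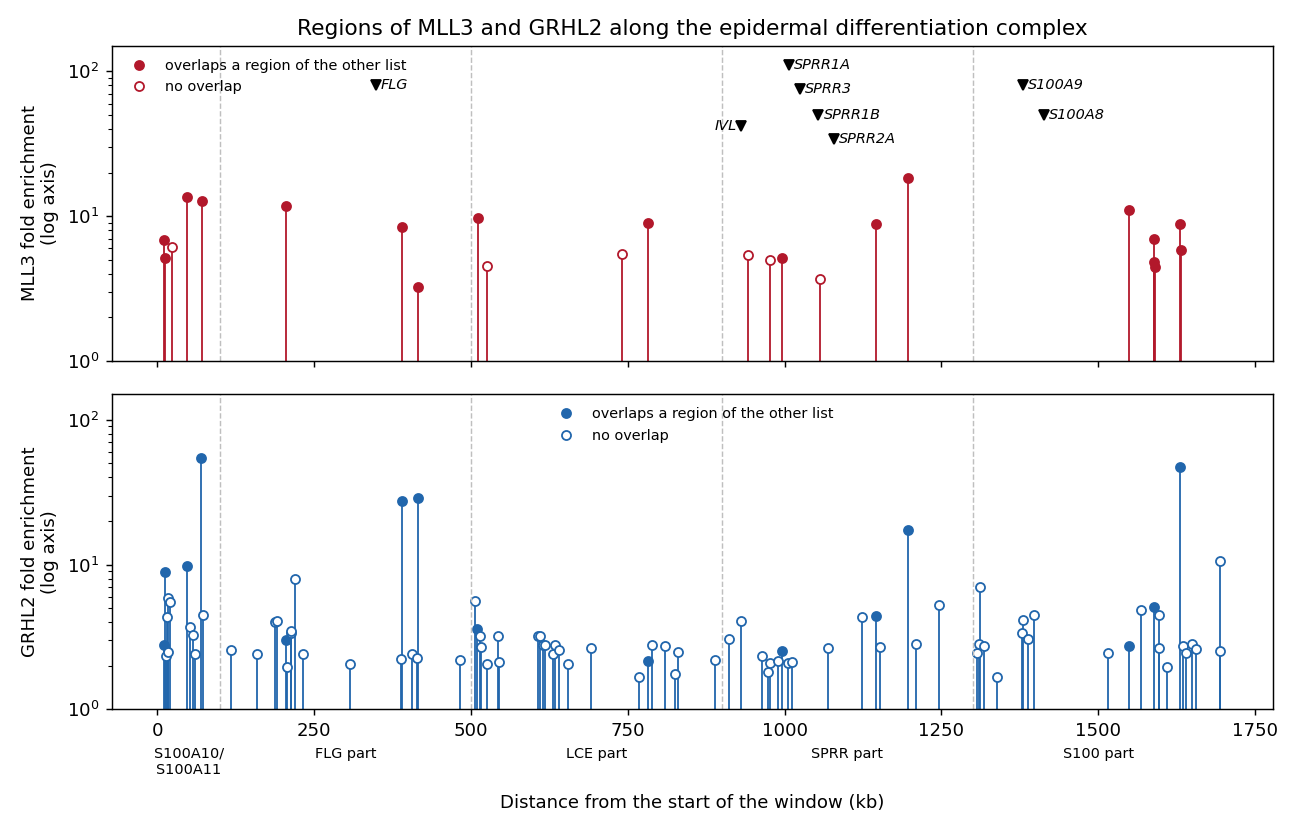
Fold enrichment (log axis) of each of the 24 MLL3 and 92 GRHL2 regions against the distance of its summit from the start of the window, with filled points for regions that overlap the other list, dashed lines between the parts and triangles at the gene starts. The 5 highest GRHL2 regions, with folds of 17.4 to 54.1, each overlap an MLL3 region, and no MLL3 region stands near S100A9 or S100A8.

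For a comparison along the cluster, the window was divided at 100, 500, 900 and 1300 kb from its start. The first 100 kb hold S100A10 and S100A11, followed by 400 kb each for the FLG part with the S100 fused-type genes, the LCE part, the SPRR part with IVL, and the S100 part with S100A9 and S100A8. MLL3 regions numbered 5, 3, 4, 6 and 6 in that order, or 50, 7.5, 10, 15 and 15 per Mb. GRHL2 regions numbered 13, 17, 23, 16 and 23, and the high-confidence ones numbered 9, 7, 2, 5 and 9. The intervals of the 400 kb parts overlapped one another for either factor. The short end had the highest counts per Mb of these unequal parts. Its MLL3 interval (16.2 to 117 per Mb) overlapped those of all other parts. Its GRHL2 interval (69.2 to 222 per Mb) overlapped those of the LCE and S100 parts. It lay above those of the FLG part (24.8 to 68.0 per Mb) and the SPRR part (22.9 to 65.0 per Mb). Many GRHL2 regions of the short end lay close together and were counted as independent, so these intervals may be too narrow to separate the parts.

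The end with S100A10 and S100A11 held 5 MLL3 and 13 GRHL2 regions in 100 kb. Counted over any 100 kb, a length set after the data were seen, the S100 part reached 6 MLL3 and 10 GRHL2 regions, and no other part exceeded 3 MLL3 or 9 GRHL2 regions. S100A10 is the light chain of an annexin complex at the cell membrane, and S100A11 is a calcium-binding protein of keratinocytes. The strongest GRHL2 region of the complex lay there, at 152019511 to 152021618, with a fold of 54.1 and a −log10 q of 299.7, which is rank 826 of the GRHL2 list. It contained an MLL3 region with a fold of 12.7 whose summit was 203 bp away. A second pair at 151996193 to 151997064 (GRHL2) and 151996526 to 151997005 (MLL3) had folds of 9.74 and 13.5, with 115 bp between the summits. The fold of 13.5 was the second highest of MLL3 in the complex.

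At FLG, the gene of profilaggrin, neither factor was listed over the gene itself. FLG spans 152275 to 152298 kb and is read from right to left. It lay inside a stretch of 184 kb without an MLL3 region (152155889 to 152339788) and one of 80.6 kb without any GRHL2 region (152257135 to 152337688). The nearest pair was upstream of FLG, on the side of FLG2 and CRNN. The MLL3 region there, at 152339789 to 152340225, was 41.8 kb from the FLG start with a fold of 8.43, and it lay inside a GRHL2 region of fold 27.6 (152339750 to 152340546), with 36 bp between the summits.

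In the FLG part the factors also ranked differently within the complex at some sites. At 152365101 to 152366297 the GRHL2 fold was 28.7 and the −log10 q 178.1, the third highest of the complex, while the MLL3 region inside it (152365513 to 152365725) had a fold of 3.22, the lowest of the 24, although the summits were 18 bp apart. At 152155405 to 152155888, on the other side of FLG, the order was the reverse. The MLL3 fold was 11.7, exceeded by 3 others in the complex, and the overlapping GRHL2 region had a fold of 3.02 and a −log10 q of 1.73.

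The LCE part, whose genes make late cornified envelope proteins of the skin surface, held 23 GRHL2 regions, as many as the S100 part. That was 57.5 per Mb, against 51.1 per Mb in the whole list, and the median fold was 2.69, against 2.77. Of the 23, 2 were high-confidence, against 19.7% of the whole GRHL2 list, and the difference was not tested. Both lay at the left edge of the part, where LCE5A and CRCT1 follow CRNN in gene order. The stretch from 152460638 to 152880580, 419.9 kb long, held no high-confidence GRHL2 region. In the whole list such regions averaged 10.1 per Mb, and how usual a gap of this length is was not computed. MLL3 was listed in this stretch at 152732232 to 152732748 with a fold of 8.96, over a GRHL2 region of fold 2.14 and −log10 q 0.277. The stretch also held MLL3 regions at 152475205 to 152475412 and 152690825 to 152691048. Their folds were 4.55 and 5.48, and they met no GRHL2 region. The strongest MLL3 region of the LCE part, at 152460288 to 152460816, had a fold of 9.75 and met a GRHL2 region of fold 3.60.

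IVL, the gene of the envelope scaffold protein involucrin, had a GRHL2 region over the position given for its start. The region spanned 152880581 to 152881290 and covered the position of the IVL start at 152881 kb, with a fold of 4.10 and a −log10 q of 3.39, within the top 11.7% of the GRHL2 list by fold. No MLL3 region overlapped it. The nearest MLL3 region, at 152891703 to 152891897, was 10.7 kb from the start on the downstream side, had a fold of 5.41 and met no GRHL2 region.

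The 4 SPRR genes, which encode small proline-rich cross-bridging proteins of the envelope, lay in a stretch with weak GRHL2 regions only. From 152881291 to 153072671, over 191 kb that contain SPRR1A, SPRR3, SPRR1B and SPRR2A, no GRHL2 region was high-confidence. The 8 GRHL2 regions listed there, 41.8 per Mb, had folds of 1.82 to 2.67. The stretch was picked as a long gap of these data. High-confidence GRHL2 regions averaged only 10.1 per Mb in the whole list. How usual such a stretch is over the genome was not computed, so it is no result about these genes. SPRR1A had a GRHL2 region within about 1 kb of its start (152955759 to 152956073), but its fold of 2.10 and −log10 q of 0.277 were below the median of the list. SPRR3, SPRR1B and SPRR2A had their nearest GRHL2 regions at 12.3, 15.1 and 9.59 kb, with folds of 2.12, 2.67 and 2.67, and SPRR1B and SPRR2A shared the same one.

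SPRR1B was the only followed gene with an MLL3 region within 10 kb of its start. The region at 153005481 to 153005884 lay 1.48 kb from its start on the downstream side. Its fold of 3.69 was the second lowest of the 24, rank 11947 of 12150 in the list, and no GRHL2 region overlapped it. The nearest MLL3 regions of SPRR1A and SPRR3 were one and the same, at 11.7 and 28.7 kb upstream, with a fold of 5.16. SPRR2A lay 23.1 kb from the MLL3 region beside SPRR1B.

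Stronger regions of both factors lay beyond SPRR2A, on the side of LORICRIN. At 153146982 to 153147459 MLL3 had its highest fold in the complex, 18.2, which is rank 529 of the list, and GRHL2 a fold of 17.4 at 153146660 to 153147579, with the summits 62 bp apart. A weaker pair with its MLL3 region at 153095297 to 153095884 had folds of 8.89 for MLL3 and 4.43 for GRHL2, with 75 bp between the summits. In gene order the genes between SPRR2A and S100A9 are SPRR2B, SPRR2E, SPRR2F, SPRR2G, LELP1, PRR9, LORICRIN, PGLYRP3 and PGLYRP4. Genes of the SPRR2 and LCE families and the repeats of FLG have near-identical copies, and how reads with several matches were treated is not given in the sources used here, so gaps and weak regions over these genes are uncertain.

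S100A9 and S100A8, which encode both chains of calprotectin, lay farther from MLL3 regions than the other followed genes. S100A9 had a GRHL2 region over the position given for its start. Both lay in the longest MLL3-free stretch of the complex, 351 kb from 153147460 to 153498558, and their starts were 169 and 136 kb from the nearest MLL3 region. The whole MLL3 list averaged only 4.07 regions per Mb, and how usual such a stretch is over the genome was not computed. A GRHL2 region at 153329637 to 153330651 covered the position of the S100A9 start at 153330 kb, with a fold of 4.13 and a −log10 q of 4.19. Another lay between both genes at 153347759 to 153348322, 14.7 kb from the S100A8 start on its downstream side, with a fold of 4.51 and a −log10 q of 7.49. S100A8 itself lay in the longest stretch of the complex without any GRHL2 region, 117 kb from 153348323 to 153465499. A stretch with no listed region does not show that the protein was missing, because each list stops at its own threshold and the read depth is unknown.

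The strong sites of the S100 part were at its far end, beyond S100A8. The GRHL2 region at 153580070 to 153582078 had a fold of 47.1 and a −log10 q of 236.8, the second highest of the complex, and it held 2 MLL3 regions with folds of 8.81 and 5.80. The strongest MLL3 region of this part, at 153498559 to 153498935, had a fold of 10.9 over a GRHL2 region of fold 2.72 and −log10 q 1.03. In gene order S100A7A, S100A7 and then S100A6 to S100A1 follow S100A8. GRHL2 reached a fold of 10.6 at 153643457 to 153644681 with no MLL3 region, the strongest unshared GRHL2 region of the complex.

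The remaining GRHL2 regions among the 10 highest of the complex were weaker. The region at 151961942 to 151963091, in the end with S100A10 and S100A11, had a fold of 8.92 and met an MLL3 region of fold 5.16. The regions at 152169288 to 152169982 in the FLG part and at 153260837 to 153261427 at the left edge of the S100 part had folds of 7.93 and 6.96 and met none.

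Set against the whole window, the 8 gene starts did not have a region within 10 kb more often than other positions. At 25 kb the same held for all GRHL2 regions, while for MLL3 it was 4 of 8 against 45.2%. An MLL3 region lay within 10 kb of 1 of the 8 starts, and within 10 kb of 23.2% of positions taken every 1 kb over the complex. Within 25 kb it was 4 of the 8 starts, against 768 of 1700 positions. A GRHL2 region lay within 10 kb of 4 of the 8, IVL, SPRR1A, SPRR2A and S100A9, against 59.3% of positions, and within 25 kb of 7 of the 8, all but FLG, against 87.8% of positions. A high-confidence GRHL2 region lay within 10 kb of 2 of the 8, IVL and S100A9, against 26.4% of positions. The counts at 10 and 25 kb were near or below these backgrounds and show nothing particular to the followed genes. The positions given for 2 of the 8 starts, IVL and S100A9, lay inside a high-confidence GRHL2 region. All GRHL2 regions covered 3.11% of the complex, and high-confidence ones 1.75%. Whether these starts differ from other positions was not tested, and starts known to 1 kb may lie outside the regions.

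**Figure D3:**
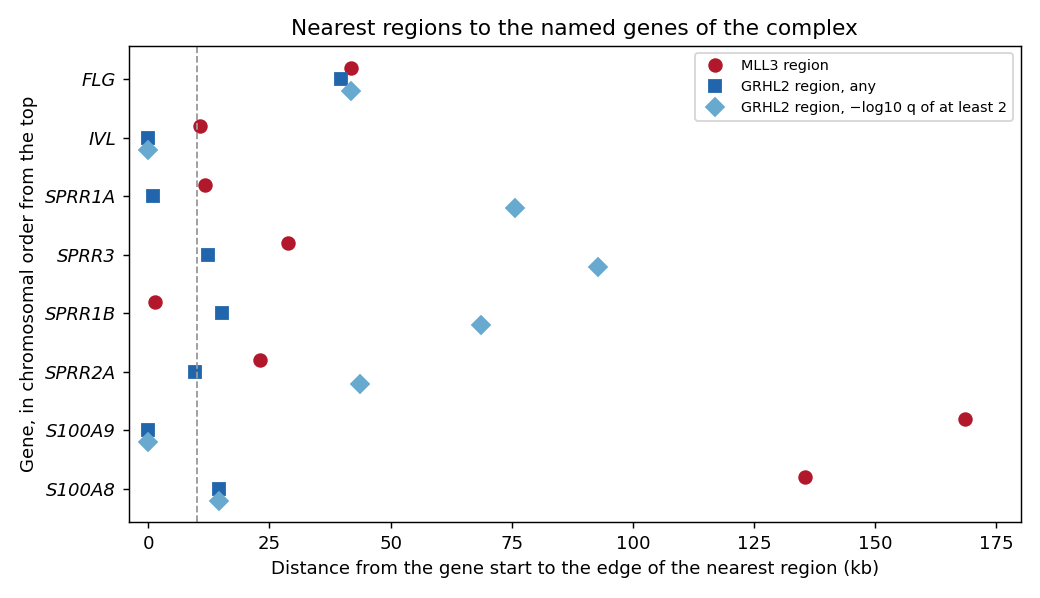
Distance from each gene start to the edge of the nearest MLL3 region, the nearest GRHL2 region and the nearest high-confidence GRHL2 region (−log10 q ≥ 2), with a dashed line at 10 kb. IVL and S100A9 have a GRHL2 region over the position given for the start, which is known to 1 kb. The 4 SPRR genes have their nearest high-confidence one at 43.7 kb or more, and S100A9 and S100A8 lie farthest from MLL3.

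High folds of both factors coincided at some sites and not at others. The highest MLL3 fold, 18.2, stood with the fifth highest GRHL2 fold, 17.4, and the second highest, 13.5, with a GRHL2 fold of 9.74. Among the 5 MLL3 regions inside the 4 highest GRHL2 regions, of fold 27.6 and above, the MLL3 folds were 12.7, 8.81, 5.80, 8.43 and 3.22. The MLL3 regions with folds of 11.7, 10.9 and 8.96 met GRHL2 regions of fold 3.02, 2.72 and 2.14. The −log10 q of these GRHL2 regions was 1.73, 1.03 and 0.277, so none was high-confidence and GRHL2 binding there is uncertain. All these folds are values of single regions from 1 pair of libraries, picked out after they were seen. No measure of the relation of the folds over the 18 pairs was computed.

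**Figure D4:**
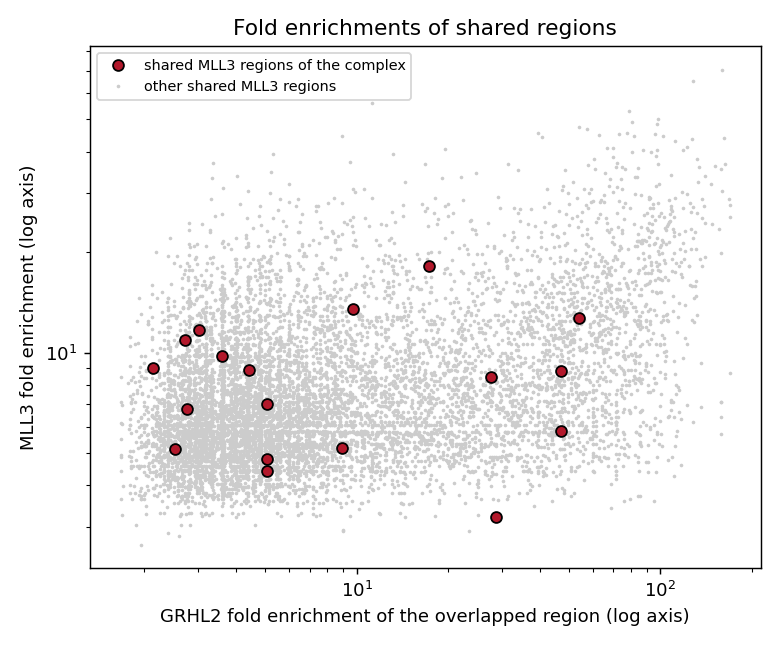
MLL3 fold enrichment against the fold enrichment of the overlapped GRHL2 region (both log axes) for the 18 shared MLL3 regions of the complex (red) and all other shared MLL3 regions (grey). The red points lie within the grey cloud, and the lowest of them, at an MLL3 fold of 3.22, has a GRHL2 fold of 28.7.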

How the data were processed

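MLL3 and GRHL2 ChIP-seq regions of KYSE510 cells, 1 library each, were used as deposited. The submitters' processing notes name BWA, Picard, MACS2 and deepTools and the build hg19, without versions; settings were not stated. The fold (a ratio), the −log10 p and −log10 q and the score of each region are the authors' values; the score was not used. The lowest −log10 q of the MLL3 list was 2.07, and the lowest −log10 p of the GRHL2 list was 1.30, so the lists are not of comparable length. Depth is unknown. The 46 MLL3 and 345 GRHL2 lines on unplaced or alternative contigs were left out.

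Regions were assigned by summit, overlap meant at least 1 bp, and gene positions were those of the selection rule, to 1 kb. Names, strand, gene order and promoters came from RefSeq (GRCh38.p14), in which all 8 genes matched; its coordinates were not used. Intervals are exact Poisson or Clopper-Pearson (scipy 1.17.1, pandas 2.3.3, Python 3.11.15). With 1 library per antibody no test was made. The overlap code was tested on made-up lists. Alternatives varied thresholds, overlap, window, flanks and distances. The rule for named regions took the 10 of highest fold in each list and the nearest to each gene; other regions in the text were picked after their values were seen. The window, genes and lists were chosen with earlier results of these data known.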

Additional observations from a re-analysis of the deposited data

How the results depend on the processing

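Of 66 alternative values, 48 kept the direction, stayed inside the interval or within 1.5 times the reported count. The ratio of MLL3 density in the complex to its flanks stayed between 2.12 and 3.53 in its 5 alternatives, of which the omission of the first 100 kb (2.38) was chosen after seeing the data. For GRHL2 the ratio of 0.873 became 1.11 with −log10 q ≥ 2; the cause was not tested. Of the 92 GRHL2 regions, 32 had −log10 q ≥ 2, 19 had −log10 q ≥ 5 and 15 had a fold of 5 or more, and the median GRHL2 fold became 4.67 with −log10 q ≥ 2, by the removal of weak regions. By part, −log10 q ≥ 2 left 7 in the FLG part, 2 in the LCE part, 5 in the SPRR part and 9 in the S100 part. The share of MLL3 regions that met GRHL2 was 33.3% for summits within 100 bp and 50% for GRHL2 regions with −log10 q ≥ 5, and the share of GRHL2 regions that met MLL3 was 31.2% with −log10 q ≥ 2. With inner boundaries 50 kb to the right the FLG part had 5 MLL3 regions, and 50 kb to the left the S100A10 and S100A11 end, then 50 kb long, had 8 GRHL2 regions. Within 25 kb, 4 genes had an MLL3 region and 7 a GRHL2 region, against 45.2% and 87.8% of positions of the complex. Within 10 kb, 2 had a GRHL2 region with −log10 q ≥ 2, and 2 had an MLL3 region when the distance was taken from the whole gene, an alternative chosen after seeing the data. Unknown read depth limits both lists. No paired analysis was possible because the antibodies have no second library to pair.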

Other observations

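Some GRHL2 regions of the complex carried several MLL3 regions, which were picked out after their values were seen. The widest GRHL2 region of the complex, 3592 bp from 153537614 to 153541205 in the S100 part, held 3 MLL3 regions with folds of 4.81, 7.0 and 4.42, and its own fold was 5.09. Its summit was 139 bp from that of the middle one and 812 and 1541 bp from the others. The MLL3 region at 152926846 to 152927083, between IVL and SPRR1A, met no GRHL2 region although a GRHL2 summit lay 251 bp away.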
